A study of Mus musculus with 15 samples.

Results

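H3K4me3 peaks of mouse CLPP-KO mBA cells were set directly against those of WT + 2HG mBA cells, without reference to untreated WT cells. The members were all peaks of these 2 lists on chromosomes 1 to 19, 14461 in CLPP-KO and 13668 in WT + 2HG, together 28129 of the 41519 peaks in the 3 deposited lists of the series. Peaks of different lists were partners when they shared at least 1 bp, and a peak that shared none had no partner. The CLPP-KO group held 4 ChIP samples of cells with a CLPP knockout, left untreated. The WT + 2HG group held 4 ChIP samples of wild-type cells given a cell-soluble 2-hydroxyglutarate in DMSO, which the study's methods name as octyl d-2HG, renewed daily during differentiation. The labels call mBA cells primary, whereas the methods describe brown preadipocytes from pooled animals of both sexes, immortalized with SV40 large T-antigen and then differentiated. The knockout cells came from a separate culture and were grown with uridine, so that genotype, cell line and medium cannot be told apart. Peaks were called by the authors on the 4 samples of a group together, giving 1 list per group, and no spread between replicates and no p-value between groups can be given.

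H3K4me3 is the trimethylation of lysine 4 of histone H3. It sits in narrow blocks over the start sites of active genes and over many CpG islands, and at developmental regulators it can mark promoters that are poised rather than transcribed. CLPP is the proteolytic subunit of a protease of the mitochondrial matrix. 2-hydroxyglutarate resembles 2-oxoglutarate, the cosubstrate of the dioxygenases that remove methyl groups from histones and DNA, and can inhibit them. Brown adipocytes burn lipid for heat through UCP1 and depend on regulators such as PPARG, EBF2 and PRDM16.

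The lists were alike in most places, and where they differed CLPP-KO had more. In CLPP-KO, 1616 peaks (11.17%, 95% Wilson interval 10.67 to 11.7%) had no WT + 2HG partner, against 810 peaks (5.926%, 5.543 to 6.335%) of WT + 2HG without a CLPP-KO partner. The strongest CLPP-KO peaks without a partner lay at developmental transcription factors, namely HoxB, HoxA, Gata3 and Pax7, whereas the strongest of WT + 2HG lay at Sim2. The Gata3 peak lay only 0.222 kb from a WT + 2HG peak. Strength is given throughout as the percentile of a peak's area among the peaks of its own list, the area being the authors' sum of −log10 p along the peak, because the areas are not scaled between lists. Intervals cover counting error only, since neighbouring peaks and genes are not independent.

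The bases around the summits of the strongest peaks without a partner are shown because peaks held by 1 list differed in their CpG content. Each run holds 150 bases of GRCm39 inside the peak, as near to the summit as annotated exons allow and at most 150 bases from it, and CpG dinucleotides are in capitals. Stronger peaks without such a window, those at Gata3 and Agap3 among them, were passed over. The first 3 belong to CLPP-KO, the next 3 to WT + 2HG, and the last is the strongest WT + 2HG peak without a partner whose summit lay in an intron away from promoters.
CLPP-KO peak near Hoxb3, chr11:96223854-96224003, plus strand: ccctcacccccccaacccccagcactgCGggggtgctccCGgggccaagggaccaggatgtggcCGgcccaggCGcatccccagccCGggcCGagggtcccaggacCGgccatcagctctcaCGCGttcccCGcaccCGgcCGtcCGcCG
CLPP-KO peak near Hoxa9, chr6:52207584-52207733, plus strand: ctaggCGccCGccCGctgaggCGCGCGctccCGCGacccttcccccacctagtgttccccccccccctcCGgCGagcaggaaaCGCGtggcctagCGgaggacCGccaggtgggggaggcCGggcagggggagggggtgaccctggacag
CLPP-KO peak near Pax7, chr4:139559982-139560131, plus strand: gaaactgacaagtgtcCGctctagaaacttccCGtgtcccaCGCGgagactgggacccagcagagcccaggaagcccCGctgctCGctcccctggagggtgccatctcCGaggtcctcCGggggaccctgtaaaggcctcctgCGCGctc
WT + 2HG peak near Sim2, chr16:93888105-93888254, plus strand: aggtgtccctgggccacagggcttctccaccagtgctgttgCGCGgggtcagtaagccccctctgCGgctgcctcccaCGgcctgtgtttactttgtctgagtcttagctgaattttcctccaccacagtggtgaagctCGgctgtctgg
WT + 2HG peak near Pheta2, chr15:82225473-82225622, plus strand: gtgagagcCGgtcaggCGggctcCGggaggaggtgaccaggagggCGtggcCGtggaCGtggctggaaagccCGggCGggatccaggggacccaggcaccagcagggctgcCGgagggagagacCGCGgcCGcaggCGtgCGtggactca
WT + 2HG peak near Aopep, chr13:63420480-63420629, plus strand: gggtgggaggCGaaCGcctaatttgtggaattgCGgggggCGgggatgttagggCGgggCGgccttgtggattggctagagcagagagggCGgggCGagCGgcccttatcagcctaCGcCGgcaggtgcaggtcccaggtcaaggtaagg
WT + 2HG peak near Sim2, intron, chr16:93880276-93880425, plus strand: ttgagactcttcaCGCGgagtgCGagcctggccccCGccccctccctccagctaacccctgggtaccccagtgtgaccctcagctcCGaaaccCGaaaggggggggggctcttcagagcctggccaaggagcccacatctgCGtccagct
The CLPP-KO runs held 14, 15 and 10 CpGs at Hoxb3, Hoxa9 and Pax7. Those of WT + 2HG held 5 at Sim2, 14 at Pheta2, 11 at Aopep and 7 in the Sim2 intron. The Hoxb3 peak, chr11:96223338-96224323, lay at percentile 73.1 in an intron of Hoxb3, 5.04 kb from the nearest coding start site and 8.48 kb from the nearest WT + 2HG peak. The Hoxa9 peak, chr6:52206652-52208088, lay at percentile 60.4 and 0.147 kb from the Hoxa9 start site. The Pax7 peak, chr4:139559586-139560897, was 1312 bp wide at percentile 51.7, and no WT + 2HG peak lay within 10.4 kb of it. The Sim2 peak, chr16:93887547-93889421, was 1875 bp wide at percentile 82.2, the highest of any peak without a partner in either list, and a CLPP-KO peak lay 0.536 kb away.

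Peaks without a partner were weak and narrow in both lists. Their median percentile was 8.6 in CLPP-KO and 5.24 in WT + 2HG, against 55.6 and 53.0 for peaks with a partner. Their median width was 419.0 and 391.5 bp, against 934.0 and 925.0 bp. The lists parted in how far up their own ranking the peaks without a partner reached. In the lowest decile 63.2% of CLPP-KO peaks (60.7 to 65.7%) and 44.7% of WT + 2HG peaks (42.0 to 47.3%) had no partner. Between percentiles 20 and 30 these shares were 11.2% (9.68 to 12.9%) and 1.1% (0.666 to 1.8%). Above percentile 25, 114 CLPP-KO and 8 WT + 2HG peaks had no partner, and above percentile 50 there were 6 and 3. When CLPP-KO was cut to its 13668 strongest peaks, the same number as in WT + 2HG, 1069 CLPP-KO and 1005 WT + 2HG peaks had no partner, so the difference in number moved with the length of the lists.

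**Figure D1:**
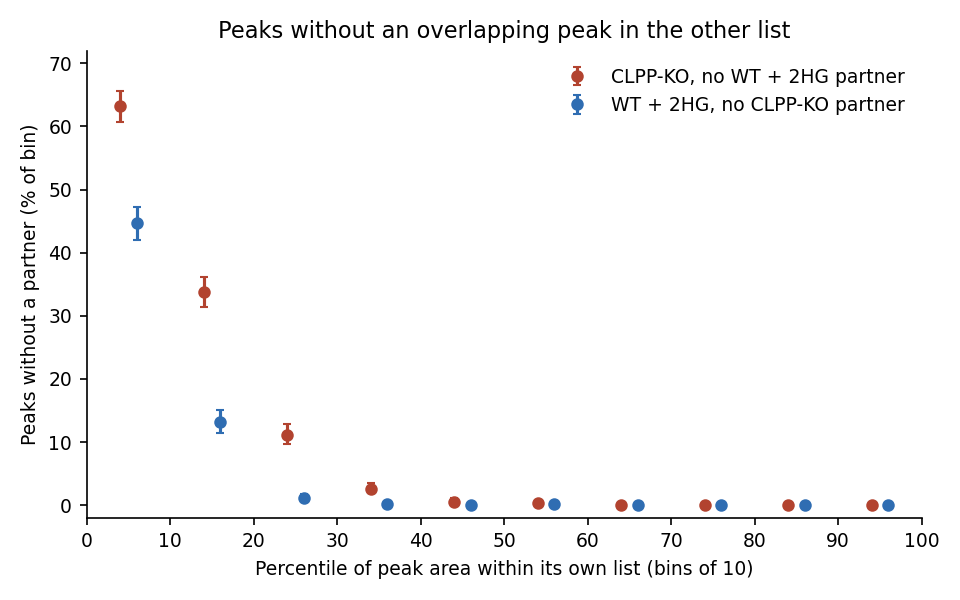
Share of peaks without a partner (y axis, % of the peaks in each bin) by percentile of area within the own list (x axis, bins of 10); points are the lists and bars are 95% Wilson intervals. CLPP-KO lies above WT + 2HG in each of the lowest 4 bins, from 63.2 against 44.7% in the first.

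At the border of the pairing rule, 34 overlaps were shorter than 50 bp, and 8 CLPP-KO and 11 WT + 2HG peaks without a partner lay less than 50 bp from a peak of the other list. WT + 2HG peaks without a partner lay closer to the other list, at a median of 10.3 kb from the nearest CLPP-KO peak, than CLPP-KO peaks without a partner did to WT + 2HG, at 18.1 kb. Within 1 kb of a peak of the other list lay 27.2% (24.2 to 30.3%) and 18.3% (16.5 to 20.3%), respectively. Some peaks without a partner came in rows. Runs of at least 3 neighbouring peaks without a partner, at most 50 kb apart, numbered 21 in CLPP-KO and 2 in WT + 2HG. The share of peaks without a partner was also higher in CLPP-KO, at 11.17 against 5.926%. Whether the runs exceeded what these shares give was not tested. In CLPP-KO the runs included the HoxB cluster at 2 places, Irx2, Nkx2-5, Vax1, Pax7, Foxl1, and the pair Ihh and Fev. Another held Myod1 with the potassium channel gene Kcnc1. Other runs lay at genes such as Cbx8, Grid2ip, Acot11, Jak3 and Rap1gap2, or at no coding gene. The run with the most peaks, 7, spanned 12.9 kb at the mucin gene Muc19. In WT + 2HG they lay at Tgfb3, a growth factor of the TGFβ family, and at Sim2, a transcription factor of the bHLH-PAS family.

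Most peaks without a partner were at promoters, taken as the sequence within 2000 bp of any annotated start site. The share was 77.7% in CLPP-KO (75.6 to 79.7%) and 72.6% in WT + 2HG (69.4 to 75.6%), against 97.0 and 97.1% of peaks with a partner. At a summit p of at most 1e-05 the order turned, with 86.7% in CLPP-KO and 89.9% in WT + 2HG. Outside promoters the lists differed in introns. Of WT + 2HG peaks without a partner 15.7% (13.3 to 18.3%) had their summit in an intron, against 8.35% (7.1 to 9.8%) in CLPP-KO, and in the lowest 20 percentiles the shares were 15.9 and 9.2%. Intergenic shares were 7.41 and 7.74%. The strongest intergenic peaks without a partner were, in CLPP-KO, chr1:14576615-14577413, 196.0 kb from the start of Eya1, at percentile 34.4, and in WT + 2HG, chr11:97017867-97018399, 11.8 kb from Tbx21, at percentile 15.1. At coding start sites the summits sat downstream of the start in 73.4% of CLPP-KO and 68.1% of WT + 2HG peaks without a partner, against 80.0 and 78.5% with one.

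The base composition around the summits, which the pairing did not use, set the WT + 2HG peaks without a partner apart. The CpG ratio, the number of CpGs over that expected from the C and G content of the 501 bases around the summit, had a median of 0.483 in WT + 2HG peaks without a partner and 0.641 in those of CLPP-KO, against 0.807 and 0.806 in peaks with a partner. A ratio of at least 0.6, a usual mark of CpG islands, was reached by 34.3% (31.1 to 37.7%) of the former and 58.2% (55.7 to 60.6%) of the latter. The median GC content was 57.7 and 62.1%. Since weak peaks have fewer CpGs, the comparison was repeated within bins of percentile. In the lowest decile the share at 0.6 or more was 29.2% (25.7 to 32.9%) in WT + 2HG without a partner and 61.1% (57.6 to 64.5%) with one, whereas in CLPP-KO it was 48.0% (44.8 to 51.3%) and 53.9% (49.7 to 58.1%). Between percentiles 10 and 20 it was 47.8 against 71.9% in WT + 2HG and 66.8 against 66.4% in CLPP-KO. At promoters the shares without a partner were 39.1% (35.3 to 43.1%) in WT + 2HG and 61.2% (58.5 to 63.9%) in CLPP-KO, and in introns 11.0 and 37.0%. Among peaks with a summit p of at most 1e-05 the shares were 62.2 and 75.1%.

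**Figure D2:**
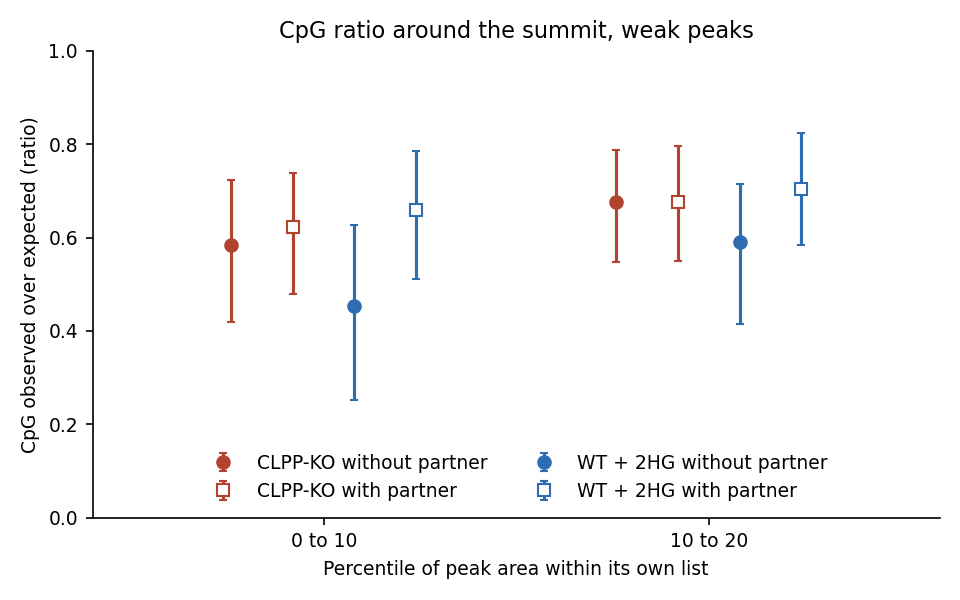
CpG ratio in the 501 bases around the summit (y axis) for peaks of the lowest percentiles (x axis, bins of 10), without (filled) and with (open) a partner; points are medians and bars the quartiles. In WT + 2HG the median without a partner lies below that with one in both bins (0.454 against 0.66, and 0.59 against 0.705), while in CLPP-KO the pairs of medians are 0.585 and 0.623, and 0.676 and 0.677.

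The overlapping peaks formed 12588 groups, 12092 of them with 1 peak of each list, and in 240 groups 1 CLPP-KO peak met several of WT + 2HG against 234 the other way. At the 12092 one-to-one pairs the percentile was a median of 1.46 points higher in CLPP-KO (quartiles −3.57 and 7.7), and it was higher in CLPP-KO at 58.5% of pairs (57.6 to 59.3%). This small lean went with the longer weak end of the CLPP-KO list. With percentiles taken among the pairs alone the share was 48.9%, and with CLPP-KO cut to the length of WT + 2HG it was 48.1%. Large differences were more frequent toward CLPP-KO. A percentile at least 20 points higher was found at 491 pairs in CLPP-KO (4.06%) and 143 in WT + 2HG (1.18%), and among the pairs alone at 375 and 288.

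Widths were nearly equal. The median ratio of CLPP-KO to WT + 2HG width was 1.005 (quartiles 0.905 and 1.13), and CLPP-KO peaks were wider at 51.3% of pairs (50.4 to 52.2%). Ratios of at least 1.5 occurred at 674 pairs toward CLPP-KO (5.57%) and 444 toward WT + 2HG (3.67%). Of these, 297 and 182 had a mean percentile of 20 or less, and 18 and 13 a mean percentile above 80. Of the 491 pairs with the higher percentile in CLPP-KO, 152 were also at least 1.5 times wider there and 0 narrower by as much. Of the 143 pairs with the higher percentile in WT + 2HG, 28 were wider there and 1 was wider in CLPP-KO. Over coding start sites on 1 strand, the 369 pairs higher in CLPP-KO reached a median of 114.0 bp farther downstream and 64.0 bp farther upstream in CLPP-KO. The 111 pairs higher in WT + 2HG reached 69.0 bp less far downstream and 39 bp less far upstream in CLPP-KO. Over all 9432 such pairs the medians were 4.0 and −2.0 bp. The area is summed along the peak, so a wider peak has a larger area by construction, and these widths and edges describe the pairs without being a separate measure.

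The largest width ratios were at pairs whose narrower peak was weak, at percentiles of 0.3 to 8.3. Toward CLPP-KO they were led by Plcxd1, 1246 against 255 bp, Flt3, which encodes a cytokine receptor, 696 against 145 bp, and Mtcl3, 1229 against 257 bp. H2-Q2 (1025 against 216 bp), Irx6 (1185 against 252 bp) and C1ql4 (1140 against 246 bp) followed. Toward WT + 2HG the largest ratio was at Alx1, 1502 against 349 bp, followed by Zfp821, 209 against 55 bp. The promoter shared by Cyb5d1, Naa38 and Tmem88 (893 against 247 bp), Kcnk1 (682 against 195 bp), that of Cntd1 and Coa3 (918 against 263 bp) and Tmem82 (745 against 220 bp) came next. H2-Q2, like H2-Q6 below, belongs to a family of near-identical histocompatibility genes, so reads could be shared among its members.

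Of 20621 coding genes, 12522 had a peak within 2000 bp of a start site in either list and are called marked. Both lists marked 11745 of them, CLPP-KO alone marked 567 (4.53%) and WT + 2HG alone 210 (1.68%). Of the genes marked in both, the strongest promoter peak lay at least 20 points higher in CLPP-KO at 472 (4.02%) and in WT + 2HG at 154 (1.31%), and the median difference was 1.18 points. These shares are the background for each group of genes described here. With CLPP-KO cut to the length of WT + 2HG, 440 and 305 genes were marked in 1 list alone and 327 and 243 passed 20 points, so the imbalance over all genes moved with the length of the lists.

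The 12 genes of highest percentile marked in CLPP-KO alone were led by Uba7 (59.9), which encodes the activating enzyme of ISG15, and the adhesion gene Icam4 (57.9). Next came Pax7 (51.7), a transcription factor of muscle stem cells, and Hoxb5 (51.4). The receptor phosphatase gene Ptprz1 (50.3), the matrix protein gene Spon1 (49.4) and Fam83b (47.6) followed. AI661453 and Cimip3 shared a peak at percentile 41.2, and Hcst (41.0), Cd83 (38.8) and Eng (38.6), the gene of the TGFβ coreceptor endoglin, completed the 12. At Uba7, Icam4 and Hcst the peak had a WT + 2HG partner that stopped short of the 2000 bp window. Of the 567 genes, 9 rested on such a peak.

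Of the genes marked in WT + 2HG alone, the highest were Fam83e (63.3), Mia (38.3), the transcription factor gene Tcfl5 (33.8), Ttc23 (30.1), the ion transport regulator gene Fxyd6 (26.7) and Eps8l2 (26.1). Lipe, the gene of hormone-sensitive lipase, lay at 22.2, Cwc25 at 20.4, Ccdc88b at 19.6, Zfp128 at 19.3 and the prostaglandin F receptor gene Ptgfr at 18.9. Fam83e, Mia and Ttc23 rested on a peak with a CLPP-KO partner, and with a window of 3000 bp Fam83e and Ttc23 were marked in both lists.

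Hox genes, the homeobox transcription factors that give cells their position along the body, carried the clearest difference. Of 39 Hox genes 36 were marked, and 4 were marked in CLPP-KO alone (Hoxb5, Hoxc10, Hoxd10 and Hoxd13) and 0 in WT + 2HG alone. Of the 32 marked in both, 17 lay at least 20 points higher in CLPP-KO, against a background of 4.02%, and 1 lay as much higher in WT + 2HG. The median difference was 26.5 points. Hoxd9 was at percentile 86.4 in CLPP-KO and 11.3 in WT + 2HG, Hoxb9 at 91.4 and 31.7, and Hoxa10 at 86.4 and 33.5. Hoxa5 went the other way, at 58.0 and 90.1. With CLPP-KO cut to the length of WT + 2HG the counts were 17 and 1, and with overlapping peaks joined and their areas summed they were 17 and 1 as well.

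**Figure D3:**
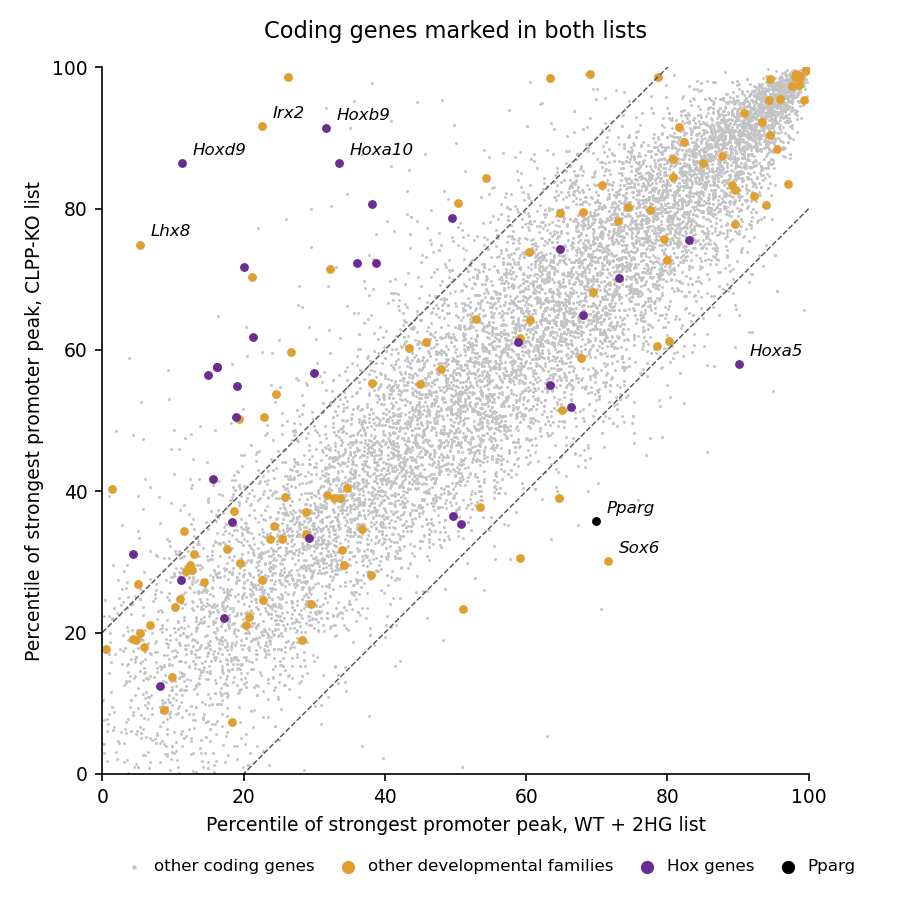
Percentile of the strongest promoter peak of each coding gene marked in both lists, WT + 2HG on the x axis and CLPP-KO on the y axis, 1 point per gene; dashed lines mark differences of 20 points. Hox genes (17 of 32) and other developmental families lie above the upper line more often than below the lower one, where Hoxa5, Sox6 and Pparg are found.

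The difference was uneven among the 4 Hox clusters. Over HoxB, taken with 2000 bp on either side, CLPP-KO had 23 peaks that covered 10.7% of the cluster, 12 of them without a partner, and WT + 2HG had 13 peaks that covered 4.09%, 0 of them without a partner. The highest percentile was 91.4 in CLPP-KO and 38.7 in WT + 2HG. Over HoxD there were 13 and 9 peaks, which covered 9.72 and 5.02% and reached percentiles of 86.4 and 19.1. Over HoxC there were 17 and 15 peaks, with a coverage of 11.5 and 9.3%. Over HoxA the coverage was 20.2% in both lists, from 22 and 23 peaks, although single genes such as Hoxa10 and Hoxa5 differed.

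**Figure D4:**
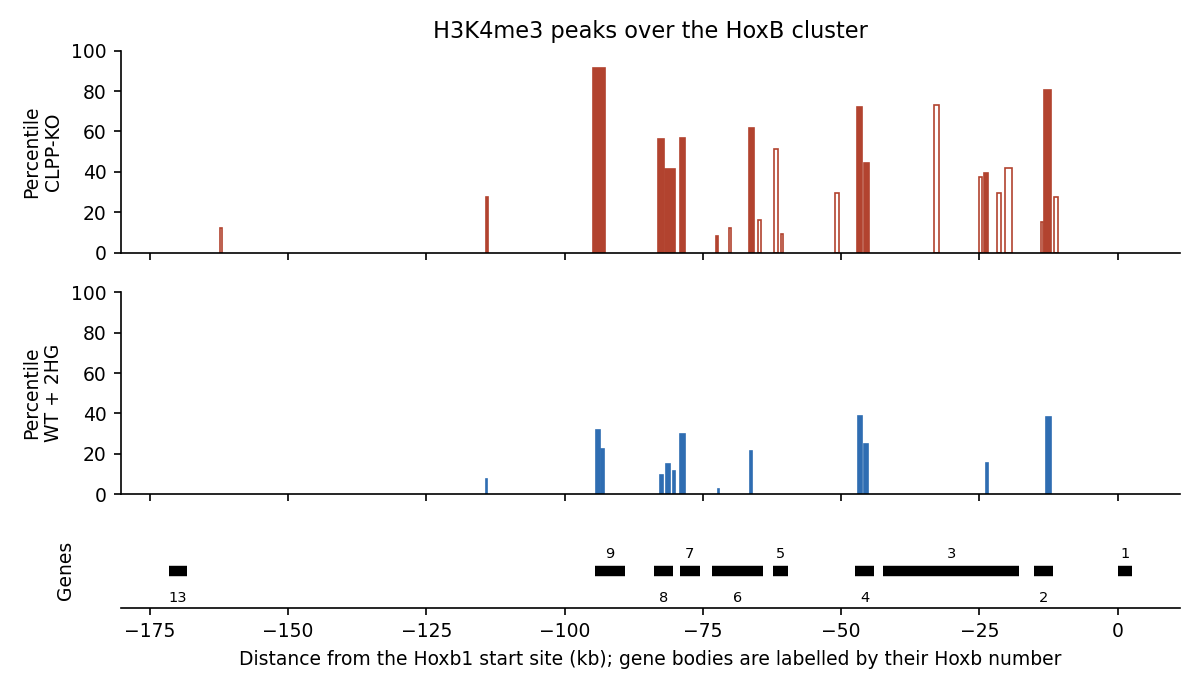
Peaks over the HoxB cluster in CLPP-KO (upper) and WT + 2HG (middle); the x axis is the distance from the Hoxb1 start site in kb, the y axis the percentile within the list, and the lower track shows the gene bodies by their Hoxb number. Open bars are peaks without a partner, of which CLPP-KO has 12 and WT + 2HG 0.

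Other developmental regulators leaned the same way to a smaller extent. Without Hox, 126 of 148 genes of developmental families, among them Fox, Nkx, Pax, Lhx, Irx, Dlx, Sox, Gata, Tbx and Wnt, were marked, 12 in CLPP-KO alone and 0 in WT + 2HG alone. Of the 114 marked in both, 17 lay at least 20 points higher in CLPP-KO and 4 in WT + 2HG, with a median difference of 5.2 points. With CLPP-KO cut to the length of WT + 2HG these were 14 and 6 genes and 2.48 points, and at a summit p of at most 1e-05 they were 13 and 6 genes and 3.36 points.

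Among the rest, Irx2 was at percentile 91.7 in CLPP-KO and 22.6 in WT + 2HG, and Wnt7b, the gene of a secreted ligand, at 70.4 and 21.2. All 5 marked Irx genes were higher in CLPP-KO, 3 of them by at least 20 points, but for Irx5 (99.0 and 69.1) the difference was 8.3 points once overlapping peaks were joined. Pax2 was at 71.4 and 32.3, Gata3 at 59.7 and 26.7 and Tbx18 at 98.5 and 63.4. The genes higher in WT + 2HG besides Hoxa5 were Sox6 (30.1 and 71.6), the neighbours Dlx5 (39 and 64.6) and Dlx6 (23.3 and 51.0), and Wnt10a (30.6 and 59.2). Marked in CLPP-KO alone were Foxb1, Foxi3, Foxl1, Foxl3, Lhx3, Nkx2-1, Nkx2-3, Nkx2-9, Pax7, Sox1, Tbx5 and Tbx20, and of these Pax7 alone was above percentile 50. Fox genes had a median difference of −0.0638 points, so the lean was not shared by every family.

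The one-to-one promoter pairs with the largest rises in CLPP-KO were Hoxd9, Lhx8 (74.9 and 5.3), Irx2, Galnt17 (94.3 and 31.7), H2-Q6 (95.3 and 35.7), Trim71 (97.8 and 38.2), Dmrta2 (77.3 and 22.1) and Lrrc7 (58.9 and 3.8). Galnt17 encodes a glycosyltransferase and Trim71 an RNA-binding ubiquitin ligase of early development. Those with the largest rises in WT + 2HG were Alx1 (5.3 in CLPP-KO and 62.9 in WT + 2HG), a homeobox gene of the face, Sdk2 (23.3 and 70.6), Kazn (35.7 and 79.2) and Sox6. The proton pump gene Atp12a (2.2 and 39.8), the promoter shared by Bop1 and Scx (38.8 and 75.9), Sim2 (65.7 and 99.4) and Rnf39 (19.8 and 52.9) followed. At Sim2 the paired WT + 2HG peak was 3150 bp wide against 1394 bp in CLPP-KO.

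The myogenic list, genes of the muscle lineage that shares a precursor with brown fat, had 18 of 30 members marked. Pax7 (51.7) and Myod1 (10.1) were marked in CLPP-KO alone. Of the 16 marked in both, 3 lay at least 20 points higher in CLPP-KO and 0 in WT + 2HG. They were Lbx1 (91.4 and 35.1), a homeobox gene of migrating muscle precursors, Msc (82.1 and 34.7), which encodes musculin, and Pax3 (50.2 and 19.3). Pax3 and Pax7 were also counted among the developmental families above. Among 7 fixed markers of skeletal muscle, Myod1 and Ckm were marked, and Myog, Acta1, Myh3, Tnnt3 and Ttn were marked in neither list.

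Adipogenic regulators were nearly level between the lists, and the 3 that differed by at least 20 points were higher in WT + 2HG. All 27 were marked, and the median difference of the 26 marked in both was 0.112 points. Pparg, the master regulator of fat cell differentiation, was at percentile 35.8 in CLPP-KO and 69.9 in WT + 2HG. At Pparg the WT + 2HG peak of 1549 bp met a pair of CLPP-KO peaks with a total width of 1393 bp, and with these joined the percentiles were 47.4 and 69.1. The growth factor genes Bmp2 (52.6 and 75.3) and Bmp4 (29.9 and 51.6) were also higher in WT + 2HG. The largest difference toward CLPP-KO, at Srebf1 (39.8 and 20.7), was 19.1 points. Ebf2, a selector of brown fat identity, was marked in CLPP-KO alone by a peak at percentile 21.0 that lay 511 bp from the nearest start site.

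The brown fat list leaned toward CLPP-KO. Of 29 annotated members 20 were marked, 1 of them (Acot11, 6.1) in CLPP-KO alone. Of the 19 marked in both, 4 lay at least 20 points higher in CLPP-KO and 0 in WT + 2HG, with a median difference of 10.6 points. With CLPP-KO cut in length 3 genes passed 20 points (median 7.33), and at a summit p of at most 1e-05 there were 2 of 17. The 4 were Lhx8 and Zic1 (78.8 and 43.7), transcription factor genes used as markers of brown fat, Esrrg (39.3 and 5.1), the gene of a nuclear receptor of oxidative metabolism, and Kcnk3 (37.2 and 15.4), the gene of a potassium channel. Lhx8 and Zic1 also belong to developmental homeobox and zinc finger families. The effector genes Ucp1, Dio2, Elovl3 and Cox8b were among the 9 members marked in neither list.

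Genes of lipid droplets and lipolysis had 31 of 44 members marked. Plin5 (15.2) and Plin3 (5.3), which encode droplet coat proteins, were marked in CLPP-KO alone, and Lipe (22.2) and Mogat1 (11.5), the gene of a triglyceride synthesis enzyme, in WT + 2HG alone. The fatty acid chaperone gene Fabp5 (53.6 and 28.2) and Pnpla3 (51.5 and 27.5) were higher in CLPP-KO, and 0 of 27 were as much higher in WT + 2HG. Of 34 cholesterol genes 33 were marked, and the 2 that lay at least 20 points higher in CLPP-KO were both exporters, Abcg1 (47.6 and 11.7) and Abca1 (60.2 and 36.2). Pmvk, a kinase of the mevalonate pathway, was marked in CLPP-KO alone at 16.4.

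**Figure D5:**
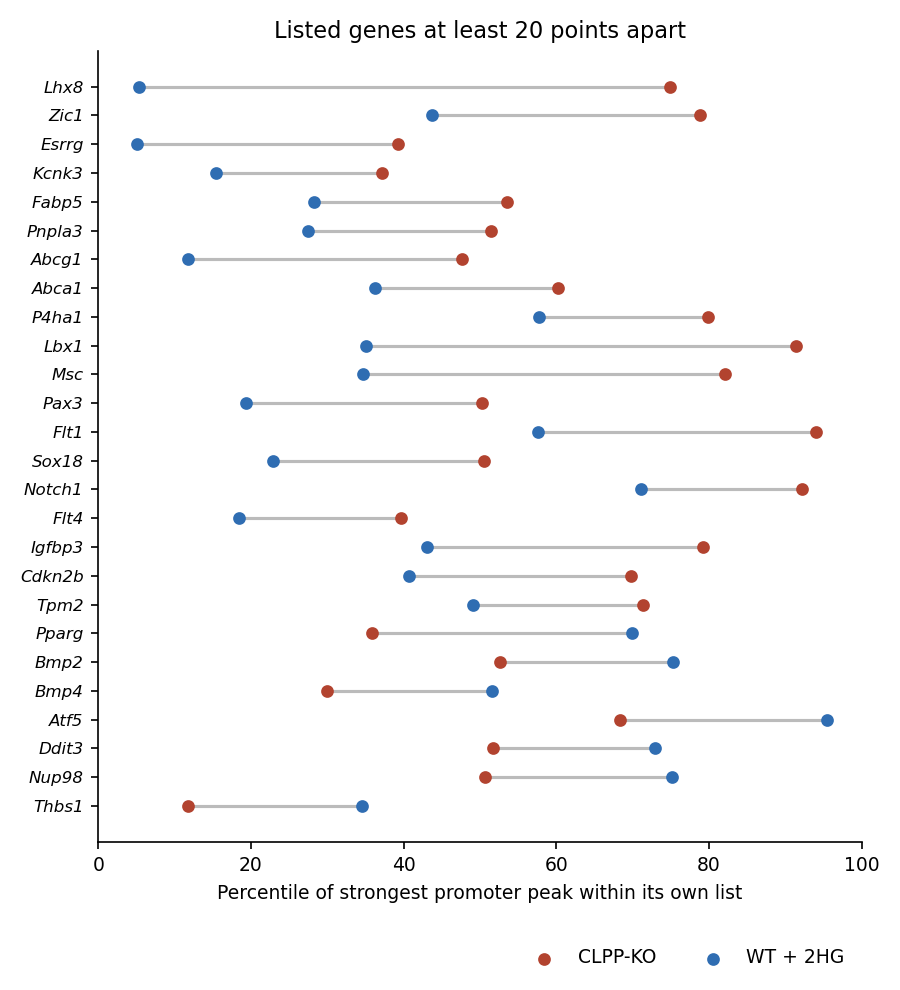
Percentile of the strongest promoter peak (x axis) in CLPP-KO and WT + 2HG for the members of the pathway lists that lay at least 20 points apart, 1 row per gene; genes found only in the developmental family lists are not drawn. The first 19 genes, from Lhx8 to Tpm2, are higher in CLPP-KO and the last 7, from Pparg to Thbs1, in WT + 2HG.

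Few genes that make, spend or respond to 2-hydroxyglutarate passed 20 points, near the background of 4.02% toward CLPP-KO and 1.31% toward WT + 2HG. Lists this short cannot be told apart from that background. Of the list of 2-hydroxyglutarate, serine and one-carbon metabolism, 31 of 36 were marked and 0 of the 28 marked in both differed by 20 points. Cth (10.4), of transsulfuration, and Mdh1 (7.6), the cytosolic malate dehydrogenase, were marked in CLPP-KO alone, and Shmt2 (13.3), the mitochondrial serine hydroxymethyltransferase, in WT + 2HG alone. Phgdh, the first enzyme of serine synthesis and named here for its role, was at 70.5 in CLPP-KO and 79.0 in WT + 2HG. D2hgdh, the gene of the enzyme that degrades d-2HG, was marked in neither list. All 35 dioxygenases were marked in both lists, and the collagen hydroxylase gene P4ha1 (79.9 and 57.7) was the 1 member past 20 points. All 22 genes of H3K4 methyltransferase complexes were marked in both and 0 differed by 20 points. The same held for the 24 marked genes of mitochondrial proteases and chaperones, among them Clpp itself, at 41.9 and 44.4, where a promoter peak says nothing of the protein.

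Of the integrated stress response, which raises transcription factors and amino acid genes under mitochondrial stress, 29 of 32 genes were marked and the median difference was −0.648 points. The transcription factor genes Atf5 (68.3 and 95.5) and Ddit3 (51.7 and 72.9), whose product is CHOP, were higher in WT + 2HG. At Atf5 a WT + 2HG peak of 2409 bp met a pair of CLPP-KO peaks, and joining them narrowed the difference to 18 points. When peaks were given only to the gene nearest their summit, Atf5 was marked in CLPP-KO alone. The stress cytokine gene Gdf15 (20.8) and Pycr1 (2.0), of proline synthesis, were marked in CLPP-KO alone.

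Of oxidative phosphorylation and mitochondrial DNA expression all 43 genes were marked, Ndufa9 (7.6) and Cox6b1 (5.8) in CLPP-KO alone, and 0 of 41 differed by 20 points. All 36 genes of the nuclear envelope were marked in both, and the nucleoporin gene Nup98 (50.7 and 75.1) was the 1 past 20 points.

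Interferon-stimulated genes differed in number, at low percentiles. Of 22 marked members 8 were marked in CLPP-KO alone, against a background of 4.53%, and 0 in WT + 2HG alone. That background covers genes of all percentiles. Among weak CLPP-KO peaks a missing partner was common, at 63.2% of the lowest decile and 33.7% of the next. The 8 genes were Oas1a (18.4), Isg15 (17.6), Mx2 (17.2), Ifit1 (16.2), Oasl2 (12.1), Rsad2 (8.6), Oas2 (6.1) and Irf9 (2.4), antiviral effectors and a subunit of the factor that induces them. With a promoter window of 3000 bp Isg15 was marked in both lists. The 14 marked in both had a median difference of −2.51 points, and 0 differed by 20 points. With CLPP-KO cut to the length of WT + 2HG, 7 of 21 remained marked in CLPP-KO alone. With a summit p of at most 1e-05, 1 of 14 was marked in CLPP-KO alone and 2 in WT + 2HG alone, so this difference rested on weak peaks.

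Angiogenesis genes had 25 of 33 members marked. Flt1 (94.0 and 57.6) and Flt4 (39.6 and 18.5), which encode VEGF receptors, Sox18 (50.5 and 22.9) and Notch1 (92.2 and 71.1) were higher in CLPP-KO. Thbs1 (11.7 and 34.5), of the inhibitor thrombospondin, was higher in WT + 2HG, and Pgf (12.6) was marked there alone. Joining overlapping peaks narrowed the differences of Notch1 to 5.6 and of Thbs1 to 15.7 points. Of the actin and focal adhesion genes, the contractile genes Tagln (21.5) and Cnn1 (2.0) were marked in CLPP-KO alone, and Tpm2, of tropomyosin, was at 71.3 and 49.1. Among cell cycle brakes, Igfbp3 (79.2 and 43.1) and Cdkn2b (69.8 and 40.7), which encodes an inhibitor of cyclin-dependent kinases, were higher in CLPP-KO, and 0 of 25 were as much higher in WT + 2HG.

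The labelled cell type was checked against fixed markers. Of 12 brown adipocyte markers 6 were marked in either list, among them Prdm16 (96.0 and 99.7), Cebpa (98.8 and 93.9) and Pparg, and Ucp1, Adipoq, Fabp4, Dio2, Elovl3 and Cox8b were marked in neither. Of preadipocyte markers 5 of 7 were marked, Dpp4 (10.1) in CLPP-KO alone. Of the other 4, Cd34 (38.1 in CLPP-KO and 11.6 in WT + 2HG) and Dlk1 (52.3 and 37.4) were higher in CLPP-KO, and Pdgfra (78.6 and 85.5) and Pdgfrb (11.9 and 24.3) in WT + 2HG. Of immune markers 0 of 7 were marked, and of endothelial markers 1 of 7, Kdr (60.3 and 44.9), with Pecam1, Cdh5, Tek, Tie1, Emcn and Vwf in neither list. Of neural markers 4 of 6 on these chromosomes were marked, Rbfox3 (9.5) in CLPP-KO alone.

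Chromosomes differed in the direction of the pairs. The median percentile difference was above 0 on 15 of 19 chromosomes and highest on chromosome 15, at 3.65 points. Over all pairs the median was 1.46 points, but −0.153 with percentiles among the pairs alone. Where the median on a chromosome is small, its sign could depend on the length of the lists. Values per chromosome were not recomputed among the pairs alone, so this was not tested. On chromosome 7 the median difference was −1.26 points, with 43.4% of 881 pairs higher in CLPP-KO (40.1 to 46.7%). On chromosome 16 the median difference was −0.858 points (45.4%, 40.4 to 50.5%). Chromosome 7 also had 9.14% of its WT + 2HG peaks without a partner (7.54 to 11.0%) and 33 of its 952 marked genes in WT + 2HG alone (3.47%, 2.48 to 4.83%, against 1.68% over all chromosomes). Of the 12 genes of highest percentile marked in WT + 2HG alone, 6 were on chromosome 7. Of these, Fam83e, Mia and Ttc23 rested on a peak with a CLPP-KO partner at the edge of the promoter window. Whether the lines differ in chromosome copies was not tested.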

How the data were processed

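H3K4me3 ChIP-seq was performed on 12 samples of mBA cells with 3 inputs, and the CLPP-KO and WT + 2HG lists, each from 4 samples, were used. The authors trimmed reads (fastp 0.23.4), aligned them to mm39 (BWA 0.7.17) and called peaks with Genrich 0.6.1 on the samples of a group together. As deposited by the authors, each peak has a signal, the area under its −log10 p curve, and the −log10 p of its summit. Neither is scaled between lists and no read depth per list or sample is given, so percentiles within a list were compared. The study's methods state a lower minimum area than the 200.0 found in both lists, and name X, Y, the mitochondrial genome and contigs as excluded, although the lists hold peaks there. The q-value column was empty, and the inputs and the untreated list were not used here.

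Peaks on chromosomes 1 to 19 were paired at 1 bp of overlap with Python 3.11.15, numpy 2.4.6, pandas 2.3.3 and pysam 0.24.0. The pairing was tested on simulated lists with 2000 planted places, where 4 of 4 counts were recovered, and gave the same counts as bedtools 2.31.1. GENCODE M39 on GRCm39 gave start sites. A promoter reached 2000 bp from a start site, and a gene took its strongest promoter peak. Calls were set at 20 percentile points and a width ratio of 1.5. Intervals are 95% Wilson intervals.

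Genes named were the 12 of highest percentile marked in 1 list alone, the 8 pairs with the largest percentile change and the 6 with the largest width ratio in each direction, and, in each gene list, members marked in 1 list alone and up to 3 of those past 20 points. Hox and Wnt genes past 20 points were limited to 4. Flt4 and Phgdh were added after their values were seen. Some genes that met these rules are not reported here. Members, lists and calls were chosen with earlier results of these data known.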

Additional observations from a re-analysis of the deposited data

Results flagged for a closer look

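Peaks outside chromosomes 1 to 19, which entered no comparison, were present in both lists. On the X chromosome there were 413 peaks in CLPP-KO and 383 in WT + 2HG. On the Y chromosome there were 16 in CLPP-KO and 2 in WT + 2HG, from cells of pooled animals of both sexes. On the mitochondrial genome there were 11 in CLPP-KO and 0 in WT + 2HG. On unplaced and unlocalized contigs there were 217 peaks on 16 sequences in CLPP-KO and 6 peaks on 5 sequences in WT + 2HG. The contig with most of the CLPP-KO peaks held 53 of them. These counts drew attention because they are signal in data outside the comparisons, and no control list was set against them. The study's peak calling commands exclude these sequences, so the deposited lists were not made with exactly those settings.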

How the results depend on the processing

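Over 19 alternative settings, 90 values for counts and shares were recomputed, of which 48 moved little, 40 moved further and 2 changed direction. CLPP-KO had the larger count of peaks without a partner in 8 of 8 settings, and the larger count of calls past 20 points in 9 of 9. It also had the larger count of width calls in 9 of 9. Settings that altered only the percentile could not change the widths, so their width values are repeats, counted among the 48. The CLPP-KO peaks without a partner numbered 1069 with CLPP-KO cut to the length of WT + 2HG, 568 in the 10000 strongest peaks of each list, 877 at a summit p of at most 1e-05 and 995 at an area of at least 1000. Those of WT + 2HG numbered 539, 474 and 328 under the last 3 settings and 1626 when an overlap of 50% of both peaks was asked for. Genes marked in WT + 2HG alone numbered 392 when a peak went only to its nearest start site. At the lower call sizes, 10 points for percentiles, 2198 and 1019 pairs were higher and 1637 and 1307 wider in CLPP-KO and WT + 2HG, and at the higher ones, 30 points and 2 times, 114 and 15 were higher and 187 and 107 wider. Ranked by summit p, 1045 and 329 pairs passed 20 points. Pairs past 20 points in WT + 2HG numbered 237 at the stricter p and, under alternatives chosen after seeing the data, 288 with percentiles among pairs alone. With CLPP-KO cut in length, also chosen after seeing the data for the pairs, 324 and 239 passed. The share of pairs higher in CLPP-KO was 54.0% at the stricter p, 53.7% by summit p and 60.7% with percentiles over all chromosomes, and it fell below even to 48.9% among pairs alone and 48.1% with CLPP-KO cut in length. The promoter shares of CLPP-KO and WT + 2HG peaks without a partner were 82.7 and 76.3% with CLPP-KO cut in length, 86.7 and 89.9% at the stricter p, 71.0 and 63.1% with the promoter narrowed to 1000 bp, 81.1 and 76.7% with it widened to 3000 bp, and 62.7 and 61.9% when only coding genes gave start sites. Shares at a CpG ratio of 0.6 or more were 65.5 and 37.9% with CLPP-KO cut in length and 75.1 and 62.2% at the stricter p. Among the named genes, with a list without a promoter peak taken as 0, the percentile difference changed sign for Atf5 (68.3) with the nearest start site and for Fam83e (1.6) and Ttc23 (0.3) with the 3000 bp window. It also did so for 2 genes that had differed by less than 20 points, Bop1 (4.9 to −83.3) with the nearest start site and Isg15 (17.6 to −3.6) with the 3000 bp window. Beyond what fewer peaks or another window entail by construction, the cause was not tested. No paired analysis was possible because each list was called on its 4 samples together, and for the same reason no replicate could be left out. Without the depth of each list, a weak peak missing from a list cannot be told apart from one below the calling threshold.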
